A study of Mus musculus with 10 samples.

Results

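The FoxO class of forkhead transcription factors has 4 members in mouse, Foxo1, Foxo3, Foxo4 and Foxo6, and these 4 genes were taken by their names from the 48476 genes of the count matrix. The question was whether Foxo1, Foxo3 and Foxo4, which were not transduced, change when Foxo6 is. RNA-seq was performed on mouse embryonic fibroblasts (MEFs) of strain CBA/CaJ X C57BL/6J, taken from E13.5 embryos. According to the methods these cells carry an Oct4-GFP reporter. All cells received retroviruses for Oct4, Klf4 and Sox2 (OKS), made in PlatE packaging cells, and were then kept in iCD1, a reprogramming medium. The OKS + FoxO6 arm received FoxO6 in addition, and the OKS + DsRed arm, labelled DR, received the red fluorescent protein DsRed as control. Each arm gave 1 library at days 0, 1, 3, 5 and 7, so there were 10 libraries and no replicates of an arm on a day. The labels do not say whether the days of an arm came from separate cultures, so the p-values below measure only the spread within these 2 courses.

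FoxO proteins bind DNA through the forkhead domain and are controlled mainly in the protein, not the transcript. Insulin and IGF signalling through PI3K and AKT phosphorylates them and holds them in the cytoplasm, and in the absence of this signal they enter the nucleus and activate genes for cell cycle arrest, antioxidant defence, autophagy and apoptosis. FoxO6 is known to shuttle out of the nucleus less readily than the others. mRNA levels such as those below show neither the phosphorylation nor the location of these proteins.

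Depth ranged from 1208379 to 2225750 expected counts per library (median 1601151), so the lower members were measured from few reads, such as 18 for Foxo1 in the smallest library. The 12 fibroblast markers were all detected in every library, and their summed level went from 9141 TPM (a level per length, scaled to the same total in each library) at day 0 to 3009 TPM at day 7 in OKS + DsRed and from 8729 to 3284 TPM in OKS + FoxO6. At day 7 the 8 epithelial markers summed to 733 TPM in OKS + DsRed against 177 TPM in OKS + FoxO6, and the 9 pluripotency markers to 346 against 77.3 TPM. In bulk samples, fewer cells of a type and less RNA per cell cannot be told apart.

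All 4 genes are protein coding and lie on different chromosomes of GRCm38. Foxo1 (ENSMUSG00000044167) is on chromosome 3 from 52268336 to 52353221, plus strand. Foxo3 (ENSMUSG00000048756) is on chromosome 10 from 42181841 to 42276755, minus strand. Foxo4 (ENSMUSG00000042903) is on chromosome X from 101254528 to 101260873, plus strand. Foxo6 (ENSMUSG00000052135) is on chromosome 4 from 120267079 to 120287349, minus strand. The genes share the coding sequence of the forkhead domain, which bears on whether reads of the abundant transduced Foxo6 could be counted for another member. The stretch of 60 coding bases below is the same place in each gene, in lower case where the base is that of Foxo6 and in capitals where it differs.
Foxo6: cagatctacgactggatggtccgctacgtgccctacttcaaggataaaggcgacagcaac
Foxo1: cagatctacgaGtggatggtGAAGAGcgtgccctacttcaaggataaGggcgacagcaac
Foxo3: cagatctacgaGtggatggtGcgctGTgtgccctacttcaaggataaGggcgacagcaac
Foxo4: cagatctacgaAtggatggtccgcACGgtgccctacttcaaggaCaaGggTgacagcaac
The stretch lies in exon 1 of Foxo6 (chr4:120286857-120286916, minus strand), exon 1 of Foxo1 (chr3:52269345-52269404, plus strand), exon 2 of Foxo3 (chr10:42274834-42274893, minus strand) and exon 1 of Foxo4 (chrX:101255196-101255255, plus strand). It holds 8 bases unlike Foxo6 in Foxo1, 5 in Foxo3 and 7 in Foxo4. Over the whole Foxo6 coding sequence of 1680 bases, the closest window of 60 bases had 56 identical bases in Foxo1, 56 in Foxo3 and 54 in Foxo4. The longest run without a difference was 21 bases in Foxo1, 20 in Foxo3 and 20 in Foxo4. The expected counts of Foxo3, Foxo4 and Foxo6 were whole numbers in all 10 libraries, that is, no fraction of a read was assigned to them. Foxo1 had fractional counts. The antisense gene Gm20402 overlaps its first exon (chr3:52268435-52269435) and held between 0 and 12.45 expected counts. In every library the counts of Foxo1 and Gm20402 together made a whole number. Adding those of Gm20402 to Foxo1 left its edgeR test without a call (adjusted p = 0.279, with 0.139 to 0.726 over all alternatives).

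Foxo6, the transduced member, checked the labels of the arms. In OKS + DsRed it had 1, 3, 3, 4 and 2 reads at days 0, 1, 3, 5 and 7, which are levels of 0.61, 1.55, 1.61, 2.29 and 0.81 TPM. In OKS + FoxO6 it had 2862, 2781, 3375, 3277 and 1743 reads, or 1017, 1325, 1356, 1267 and 762 TPM. Every OKS + FoxO6 library was far above every OKS + DsRed library, from day 0 onwards. Summed over the days, 13 reads in OKS + DsRed stood against 14038 in OKS + FoxO6, a ratio of 837 after scaling for depth (95% exact interval 489 to 1573, for counting error only, as are all intervals on counts below). In the edgeR fit over the 5 days the shift was 9.64 on the log2 scale (adjusted p = 1.99e-10), a value that rests on the few control reads. As Foxo6 was transduced into this arm, the outcome of this test was fixed by the design. The counts per gene do not tell the retroviral copy from the cell's own Foxo6, so a response of the latter could not be measured. The antisense RNA Foxo6os, which lies beside Foxo6 on the other strand without overlapping it, had 0 reads in all 10 libraries.

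Foxo6 stayed high within its arm and was lowest at day 7. Against day 0, its CPM (counts scaled to library size, not to length) were 1.25-fold (1.19 to 1.32) at day 1 and 1.27-fold (1.21 to 1.33) at day 3, and at day 7 they were 0.844-fold (0.795 to 0.897). The step from day 5 to day 7 was the one with the largest change, to 0.720-fold in CPM (0.679 to 0.763) and 0.602-fold in TPM. For scale, the transduced Pou5f1 (the gene of Oct4) ranged from 3386 to 7071 TPM in the same arm, Sox2 from 2181 to 3109 TPM and Klf4 from 1958 to 3517 TPM, levels that include the cell's own transcripts. Foxo6 was 0.142 to 0.30 of the Pou5f1 level, 0.290 to 0.466 of Sox2 and 0.272 to 0.570 of Klf4. Its level was 23.0-fold the summed TPM of Foxo1, Foxo3 and Foxo4 at day 0 and 7.82-fold at day 7.

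**Figure D1:**
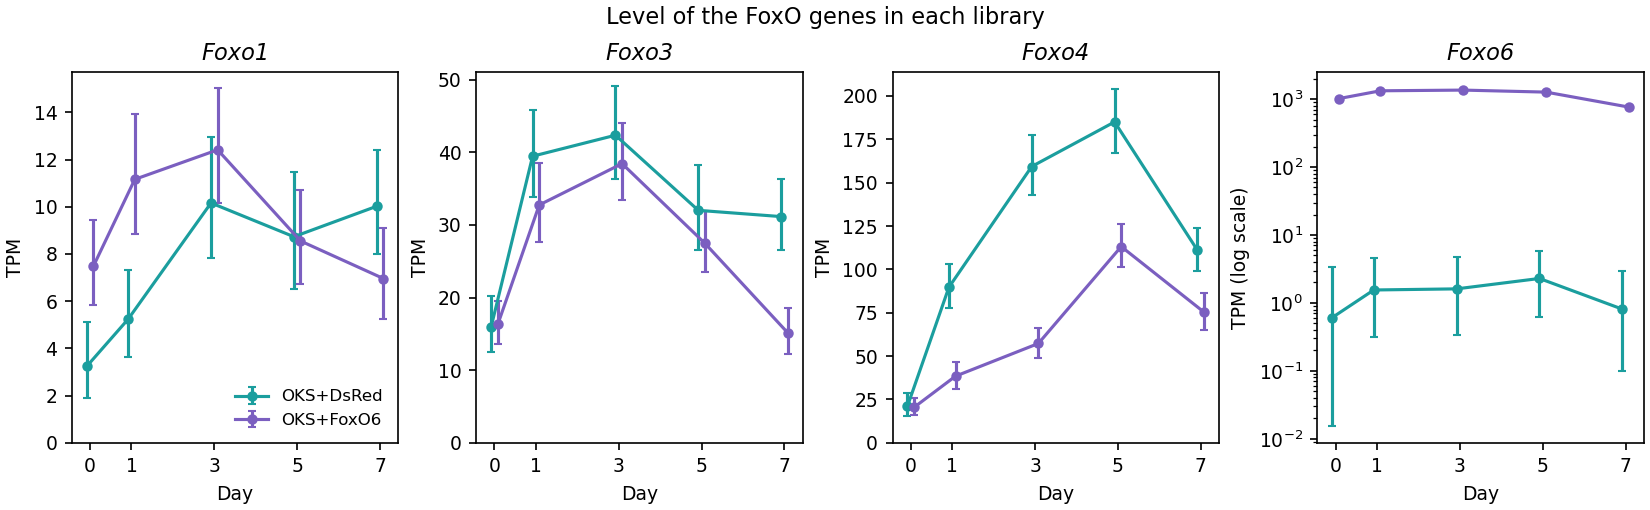
TPM of each FoxO gene (vertical axes, on a log scale for Foxo6 only) by day, in OKS + DsRed and OKS + FoxO6, each point 1 library and each bar the exact 95% interval of its read count. Foxo4 rose from 21.2 to 185 TPM in OKS + DsRed but reached 113 TPM in OKS + FoxO6, and Foxo6 lay between 762 and 1356 TPM in OKS + FoxO6 alone.

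Foxo4 had lower values in OKS + FoxO6, and of the 3 members not transduced it alone was called in the edgeR fit over the 5 days, a call that 4 of 13 alternatives did not keep. It is expressed in many tissues and is best known for its part in stress resistance and cell cycle arrest. In OKS + DsRed its level was 21.2, 89.7, 159, 185 and 111 TPM at days 0, 1, 3, 5 and 7. In OKS + FoxO6 it was 20.5, 38.4, 57.3, 113 and 75.3 TPM. The arms were close at day 0, and from day 1 on the OKS + FoxO6 library was the lower on each day, although the ranges over the course overlapped. The ratio of CPM, OKS + FoxO6 over OKS + DsRed, was 0.884 at day 0, with an interval of 0.595 to 1.33. It then dropped to 0.451 at day 1 (0.351 to 0.578) and 0.377 on day 3 (0.312 to 0.454), and came back to 0.546 on day 5 (0.470 to 0.633) and 0.736 on day 7 (0.614 to 0.881). The gap was thus widest at day 3 and smaller after it, and the day 0 interval includes no difference. Single days have no replicate check.

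Over the 5 days, Foxo4 was lower in OKS + FoxO6 by a log2 shift of -0.84 (SE 0.17, 95% interval -1.22 to -0.47), with an adjusted p of 0.00853 by the quasi-likelihood test of edgeR, with a term for each day. Of all 10977 genes tested, 7.13% were called lower and 6.93% higher. Of the members, Foxo4 was called lower and the transduced Foxo6 higher, the latter fixed by the design. The call on Foxo4 was lost without day 3, the day of the widest gap (log2 shift -0.68, adjusted p = 0.0576), and without the day term (-0.89, adjusted p = 0.441). It was also lost in limma on log2(TPM + 0.1), at -0.80 with an adjusted p of 0.0558, and in limma on log2(TPM + 1) without a filter on low genes, at -0.79 with an adjusted p of 0.104. The shift kept its sign in all 13 alternatives, between -0.68 and -0.98, with adjusted p from 5.77e-06 to 0.441. The summed epithelial markers were lower in OKS + FoxO6 on every day, day 0 included, with 90.2, 43.1, 110, 306 and 733 TPM in OKS + DsRed against 33.9, 19.6, 23.2, 72.7 and 177 TPM on days 0, 1, 3, 5 and 7. Their part in the shift of Foxo4 was not tested.

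The rise of Foxo4 from day 0 was seen in both arms. In OKS + DsRed its CPM on days 1, 3, 5 and 7 was 3.53-fold (2.52 to 5.06), 6.24-fold (4.52 to 8.81), 7.83-fold (5.69 to 11.03) and 4.76-fold (3.44 to 6.73) that of day 0. In OKS + FoxO6 the same ratios were 1.80 (1.31 to 2.49), 2.66 (2.003 to 3.56), 4.83 (3.72 to 6.34) and 3.96 (3.003 to 5.28). The highest level came at day 5 in each arm, and the fall from day 5 to day 7 was 0.608-fold (0.523 to 0.706) in OKS + DsRed and 0.820-fold (0.685 to 0.981) in OKS + FoxO6. The day effect of Foxo4 had an adjusted p of 0.000733 in edgeR, where 19.6% of all genes were called. The arm by day slope, the change of the arm difference per day, was 0.04 on the log2 scale (95% interval -0.30 to 0.37, adjusted p = 0.959), so a steady widening or closing of the gap was not detected. No gene of 10977 was called for this slope by edgeR (0%), and 954 had an unadjusted p under 0.05.

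Foxo1 had higher values in OKS + FoxO6 on the early days, without passing the test. It is the member best known from insulin action in liver and fat, and in human embryonic stem cells it is known to act on pluripotency genes. Its level in OKS + DsRed was 3.24, 5.24, 10.2, 8.73 and 10.02 TPM at days 0, 1, 3, 5 and 7. In OKS + FoxO6 it was 7.48, 11.2, 12.4, 8.55 and 6.96 TPM. The OKS + FoxO6 library was the higher at days 0, 1 and 3 and the lower at days 5 and 7, and the arms overlapped. At day 0 this rested on 18 reads against 71, and the CPM ratio was 2.09 (1.23 to 3.73). At day 1 it was 2.11 (1.39 to 3.25), and at days 3, 5 and 7 it was 1.20, 0.956 and 0.767, with intervals that include 1. The day 1 ratio leaves out the overlapping Gm20402, which held 5.91 expected counts in OKS + DsRed beside 34.09 for Foxo1. In OKS + FoxO6 it held 0 beside 79 for Foxo1. Adding these counts would lower the day 1 ratio.

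The shift of Foxo1 over the 5 days was 0.34 on the log2 scale (SE 0.23, 95% interval -0.16 to 0.84, adjusted p = 0.377 by edgeR), and the interval holds both no difference and one of nearly 2-fold. The shift was 0.20 without day 0, 0.17 without day 1 and 0.52 without day 7, and was called in none of these (adjusted p = 0.631, 0.726 and 0.139, the last 2 being the ends of the range over its alternatives). Its slope was -0.21 per day (95% interval -0.40 to -0.02), with an unadjusted p of 0.0330 and an adjusted p of 0.532. The day effect had an adjusted p of 0.348. Within OKS + DsRed, the CPM of Foxo1 at day 7 was 2.88-fold that of day 0 (1.72 to 5.09), against 1.05-fold (0.726 to 1.52) within OKS + FoxO6. These intervals hold no error between cultures.

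Foxo3 had a course of similar shape in both arms up to day 5 and did not pass the test between them. It is the member best known for quiescence, longevity and the control of autophagy and cell death genes. In OKS + DsRed its level was 16.0, 39.5, 42.3, 32.0 and 31.1 TPM at days 0, 1, 3, 5 and 7. In OKS + FoxO6 it was 16.3, 32.7, 38.4, 27.5 and 15.1 TPM. The arms overlapped, the values of day 0 were close, and the widest gap was at day 7. The CPM ratio was 0.752 at day 1 (0.599 to 0.942) and 0.665 at day 7 (0.510 to 0.863), and at days 0, 3 and 5 it lay between 0.882 and 0.925 with intervals that include 1. At day 7 the ratio of TPM was 0.486, lower than that of the counts. The effective length of Foxo3, which has 5 transcripts, was 5445 bases in OKS + DsRed and 6787 in OKS + FoxO6 on that day, and its part in the lower ratio was not tested.

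The shift of Foxo3 was -0.29 on the log2 scale (SE 0.13, 95% interval -0.57 to -0.003). Its unadjusted p was 0.0478 and its adjusted p 0.173 in edgeR, so it was not called. Its slope was -0.02 per day (adjusted p = 0.957). The day effect of Foxo3 had an adjusted p of 0.0445 in edgeR and of 0.0797 with an offset for effective length, so that call depended on how length was treated. From day 0 to day 3 its CPM was 1.90-fold (1.43 to 2.55) in OKS + DsRed and 1.82-fold (1.45 to 2.29) in OKS + FoxO6. At day 7 it was 1.45-fold (1.09 to 1.95) and 1.05-fold (0.789 to 1.38). The step from day 5 to day 7 was 0.997-fold (0.78 to 1.27) in OKS + DsRed and 0.728-fold (0.56 to 0.94) in OKS + FoxO6.

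**Figure D2:**
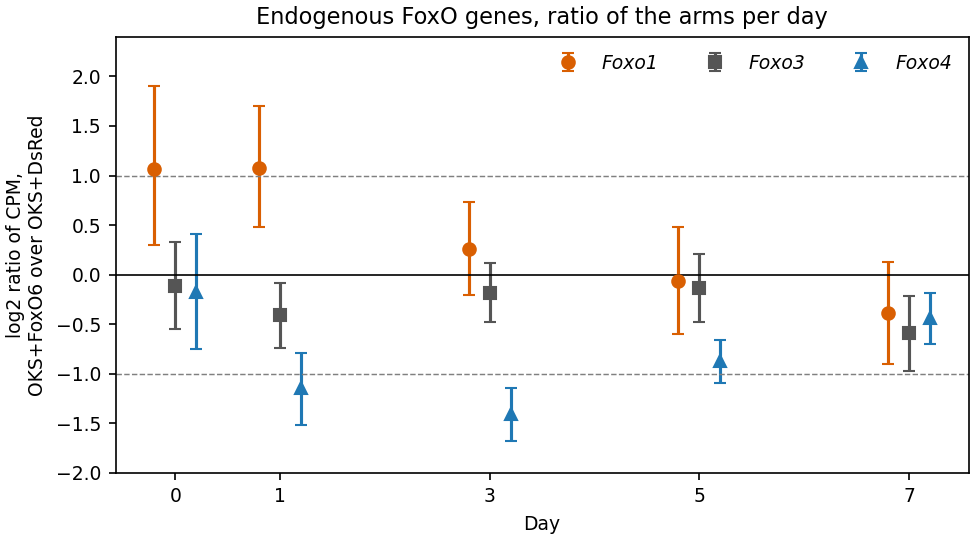
Log2 ratio of CPM, OKS + FoxO6 over OKS + DsRed, by day for Foxo1, Foxo3 and Foxo4, with exact 95% intervals for counting error and dashed lines at 2-fold. Foxo4 lies below 0 from day 1 on, with a ratio of 0.377 at day 3, while Foxo1 lies above 0 at days 0 and 1 with ratios of 2.09 and 2.11.

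Which members passed 2-fold on a single day depended on the pseudocount and on the scale. In log2(TPM + 1), and among the 3 members not transduced, 2 differences were past it, both of Foxo4, at day 1 (log2 difference -1.20) and day 3 (-1.46). Foxo1 at day 0 stood at the limit itself, with a log2 difference of 1.00, and Foxo3 at day 7 close to it, with -0.99. Among all genes tested, 10.2%, 10.1%, 11.9%, 13.5% and 17.5% were past this size on days 0, 1, 3, 5 and 7. In log2(CPM + 1), Foxo1 was past 2-fold at day 0 (1.02) and day 1 (1.04), Foxo4 at day 1 (-1.14) and day 3 (-1.40), and Foxo3 at day 7 was not (-0.58). On this scale 8.7%, 8.85%, 11%, 12.7% and 16.2% of all genes tested passed on days 0, 1, 3, 5 and 7. By the plain ratio of TPM, 5 differences were past 2-fold. Foxo1 was higher in OKS + FoxO6 at day 0 (2.31-fold) and day 1 (2.13-fold), and the ratio was 0.429 for Foxo4 at day 1, 0.360 for Foxo4 at day 3 and 0.486 for Foxo3 at day 7. By this rule 13.3%, 12.2%, 13.8%, 15.2% and 20.5% of all genes tested passed on days 0, 1, 3, 5 and 7. The day 1 values of Foxo1 on every scale leave out the 5.91 expected counts of Gm20402 in OKS + DsRed, and adding them would make the difference smaller.

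The members were then compared with each other, by the daily log2 differences between the arms in CPM + 1. The difference of Foxo1 was above that of Foxo4 on 5 of 5 days, by 1.18 on average (SD 0.81). It was above that of Foxo3 on 5 of 5 days too, by 0.66 (SD 0.60). The difference of Foxo3 was above that of Foxo4 on 4 of 5 days, by 0.52 (SD 0.55). In a two-sided exact permutation test over the 5 days the adjusted p was 0.0938 for Foxo1 against Foxo4, 0.0938 for Foxo1 against Foxo3 and 0.188 for Foxo3 against Foxo4, over 3 pairs. With 5 days the smallest p this test can give before adjustment is 0.063, so it could not have reached 0.05.

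In level per length, Foxo4 stood above Foxo3 and Foxo3 above Foxo1 in every library. Foxo4 and Foxo3 did not differ beyond counting error in OKS + DsRed at day 0, where 21.2 TPM (15.3 to 28.6) stood beside 16.0 TPM (12.5 to 20.2). The same holds for OKS + FoxO6 at day 0, with 20.5 TPM (16.0 to 25.9) and 16.3 TPM (13.5 to 19.5), and at day 1, with 38.4 TPM (31.2 to 46.9) and 32.7 TPM (27.6 to 38.5). Of the summed TPM of Foxo1, Foxo3 and Foxo4, the share of Foxo4 in OKS + DsRed was 52.4%, 66.7%, 75.2%, 82.0% and 73.0% on days 0, 1, 3, 5 and 7. In OKS + FoxO6 it was 46.3%, 46.7%, 53.0%, 75.9% and 77.3%. In TPM, Foxo4 thus took a smaller share in OKS + FoxO6 on days 0, 1, 3 and 5, and a larger one at day 7. These shares carry no interval. The day 7 share depends on the TPM of Foxo3, whose ratio of 0.486 was lower than its CPM ratio of 0.665. Foxo1 made up 16.9% of the sum at day 0 in OKS + FoxO6 against 8.03% in OKS + DsRed, where it had 18 reads.

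**Figure D3:**
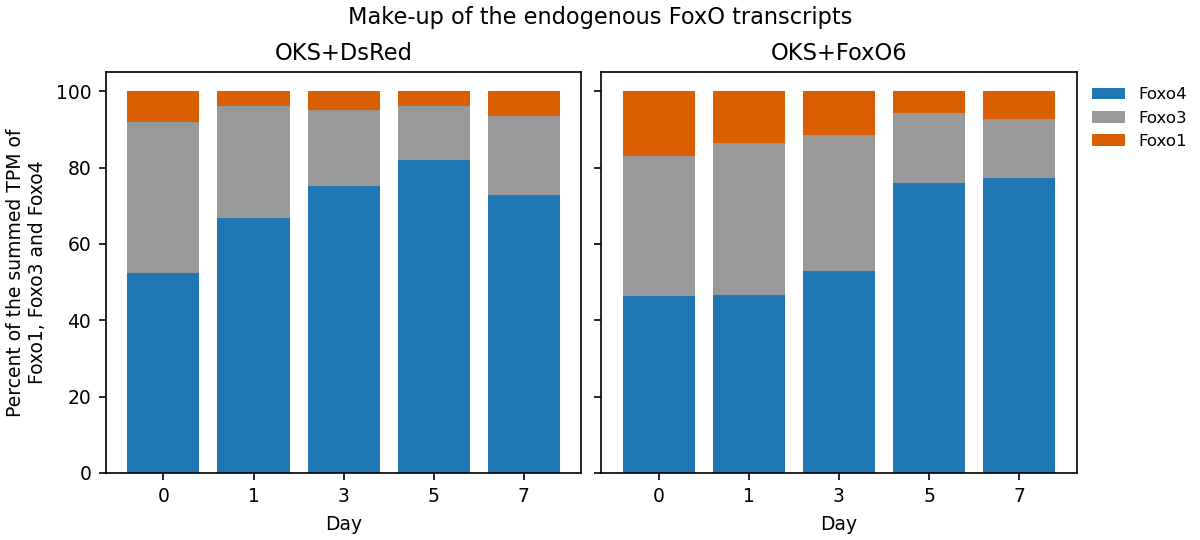
Percent of the summed TPM of Foxo1, Foxo3 and Foxo4 that each gene makes up, by day, with 1 library per bar, in OKS + DsRed (left) and OKS + FoxO6 (right). The share of Foxo4 at day 3 is 75.2% in OKS + DsRed and 53.0% in OKS + FoxO6.

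The sum of the 3 levels was 40.4 TPM in OKS + DsRed and 44.3 TPM in OKS + FoxO6 at day 0. On days 1, 3, 5 and 7 it was 134, 212, 226 and 152 TPM in OKS + DsRed against 82.3, 108, 149 and 97.4 TPM in OKS + FoxO6. The sum was therefore lower with FoxO6 from day 1 on, and most of that gap was Foxo4. With Foxo6 counted in, the sum of the class was 1061 TPM at day 0 and 860 TPM at day 7 in OKS + FoxO6, of which Foxo6 was 95.8% and 88.7%.

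Genes whose course was most like that of each member were found by Pearson's r of log2(TPM + 1) over the 10 libraries, among 9562 genes with a mean of at least 10 TPM. The libraries share arms, days and depth, so r describes likeness of course and nothing more. For Foxo4 these were Ano1 (r = 0.99), a calcium-activated chloride channel, Ifi35 (0.98), an interferon-induced gene, and Trim9 (0.97), a ubiquitin ligase of neurons. For Foxo1 they were Unc13b (0.94), Kdm1a (0.93), which encodes the histone demethylase LSD1, and Ube2q2 (0.93). For Foxo3 they were Usf3 (0.94), Huwe1 (0.94), a large ubiquitin ligase, and Exoc4 (0.94), a subunit of the exocyst. Among the members themselves r was 0.62 for Foxo3 with Foxo4, 0.57 for Foxo1 with Foxo3 and 0.41 for Foxo1 with Foxo4.

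The genes that signal to FoxO proteins were described from a list of 45, of which 43 were tested. Of these, 7 were called higher (16.3%) and 1 lower (2.33%) in OKS + FoxO6 by edgeR, beside 6.93% and 7.13% of all genes. The median shift of the list was 0.03 on the log2 scale beside -0.02 over all genes. This list too was chosen with earlier results of these data known, so its shares are descriptions. Igf1r, the IGF receptor, ranged from 17.9 to 41.9 TPM in OKS + DsRed and from 40.9 to 76.7 TPM in OKS + FoxO6 (log2 shift 1.14, adjusted p = 0.000222), and was higher on 5 of 5 days. Insr, the insulin receptor, had a shift of 0.59 and the adaptor Irs1 one of 0.68. The catalytic PI3K subunits Pik3cb and Pik3ca had shifts of 0.55 and 0.52. Sirt2, a deacetylase of FoxO proteins, had a shift of 0.65 and was higher on 5 of 5 days, and the kinase gene Mapk9 (JNK2) had one of 0.45 and was higher on 4 of 5. Skp2, part of a ubiquitin ligase that acts on FoxO1, was lower (-0.63, adjusted p = 0.0286). The count for this list was 3 by DESeq2 and 13 with a length offset.

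The described targets of FoxO proteins were a list of 50 names, of which 39 genes were tested. By edgeR 12 were called higher (30.8%) and 4 lower (10.3%), beside 6.93% and 7.13% of all genes, with a median log2 shift of 0.30 beside -0.02 over all genes. The list was chosen with earlier results of these data known, so these shares are descriptions and no test of enrichment. Sepp1 (selenoprotein P) ranged from 45.0 to 167 TPM in OKS + DsRed and from 327 to 2432 TPM in OKS + FoxO6, a log2 shift of 3.82. Gadd45a, a growth arrest gene, ranged from 21.6 to 59.0 TPM and from 180 to 227 TPM, a shift of 2.34. The ranges of the arms did not overlap for either gene. The co-regulator Cited2 (1.38), Igf1r (1.14), the receptor Tek (0.95), Sesn3 (0.94), which restrains mTORC1, and the autophagy gene Map1lc3b (0.90) were higher, and the cyclin D gene Ccnd1 was lower (-0.91, adjusted p = 0.000401). Tek is also among the 8 endothelial markers, and most of their summed level is Tek itself. Without Tek, the sum of the other 7 ranged from 5.83 to 13.1 TPM in OKS + DsRed and from 7.58 to 47.4 TPM in OKS + FoxO6, and its part in the shift of Tek was not tested. Of these 7 genes, Kdr was at 0 in none of the 10 libraries, Pecam1 in 2, Esam in 3, Tie1 in 4, Erg in 5, Cdh5 in 6 and Emcn in 9. Igf1r, Insr, Irs2 and Rictor stand in both lists, so the 2 lists are not independent.

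**Figure D4:**
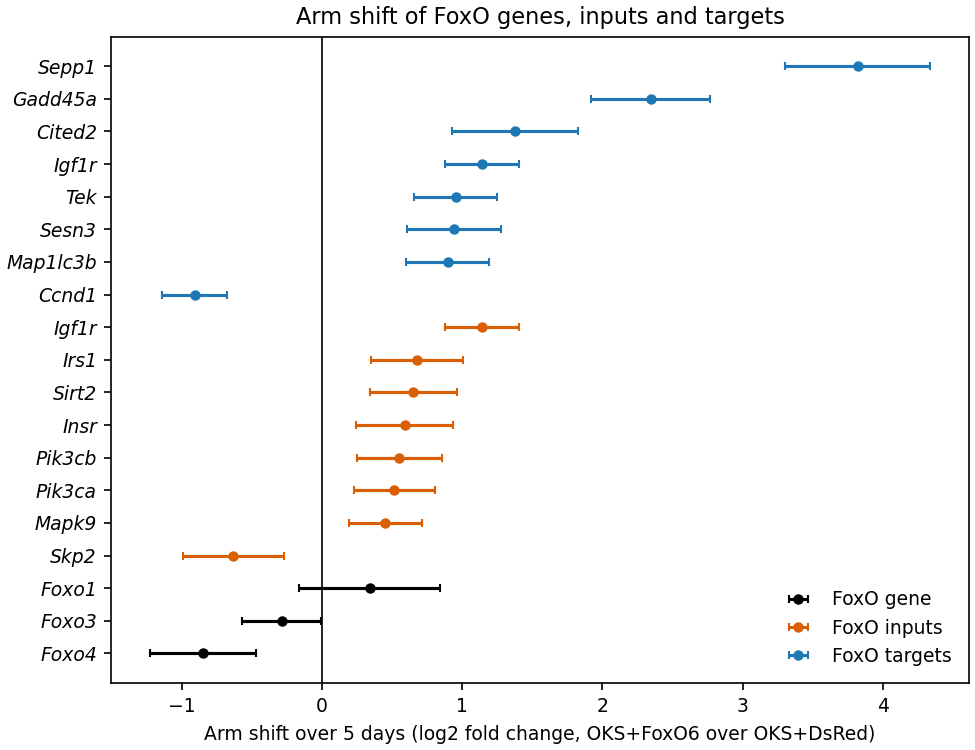
Shift between the arms over the 5 days (log2 fold change with 95% interval, edgeR) for Foxo1, Foxo3 and Foxo4 and for the 8 genes with the lowest adjusted p in the list of FoxO inputs and in that of FoxO targets. Foxo4 (-0.84) lies below 0 with its whole interval, and Sepp1 (3.82) and Gadd45a (2.34) lie farthest above.

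Outside the FoxO class, 12 of 40 other forkhead genes passed the filter on low counts. Foxp1 was called higher in OKS + FoxO6 by edgeR (log2 shift 0.82, adjusted p = 0.00438). Foxd1 (-0.87, adjusted p = 0.00226) and Foxc1 (-0.58, adjusted p = 0.0414) were called lower. Of the 12 genes, 8.33% were thus called higher and 16.7% lower, beside 6.93% and 7.13% of all genes. With so few genes these shares are descriptions only, and the count for this list was 3 by edgeR and 2 by DESeq2. Foxd1 went from 22.6 TPM at day 0 to 434 TPM at day 5 in OKS + DsRed and from 17.0 to 245 TPM in OKS + FoxO6. At day 7 it was at 388 TPM in OKS + DsRed and 241 TPM in OKS + FoxO6, so days 5 and 7 were nearly level in the latter.

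The promoters of Foxo1 and Foxo3 were searched for the forkhead motif GTAAACA and its variants ATAAACA and CAAAACA on both strands, in the RefSeq window of GRCm38.p6 that runs from 250 bases before to 50 after the start. None of the 3 was found in either, and among all 32851 such windows GTAAACA was in 3.65%, ATAAACA in 4.60% and CAAAACA in 6.28%. Foxo4 and Foxo6 were not searched. That these letters are not in a window says nothing of binding elsewhere.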

How the data were processed

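RNA-seq was measured in MEFs of 2 arms at 5 days, with 1 library per arm and day. Reads were mapped by the authors to GENCODE M13 transcripts of GRCm38 (mm10) using Bowtie2 under RSEM. The authors deposited expected counts (RSEM estimates, not normalized) and TPM per gene, both from the same alignments. Coordinates are those of GENCODE M21 on the same build. The versions of RSEM and Bowtie2 and the strand setting are not given in the sources used here. The methods name a TruSeq kit and the labels a VAHTS mRNA-seq kit.

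Libraries were grouped by their titles. Expected counts were rounded and fitted for all genes with edgeR 4.0.16 (R 4.3.3): TMM, filterByExpr by arm, quasi-likelihood F tests, arm with day as a factor (4 residual degrees of freedom), and Benjamini-Hochberg adjustment over 10977 genes with a threshold of 0.05. The slope was fitted with day as a number (6 residual degrees of freedom). The scripts were tested on simulated data. Ratios per day are CPM over TMM-scaled libraries, with exact 95% conditional intervals. limma 3.58.1 and DESeq2 1.42.0 were alternatives, as were the size factors of DESeq2, no day term, no filter, a length offset, a pseudocount of 0.1 and each day left out. Foxo1 with Gm20402 added, the pooled Foxo6 counts, 2-fold counts by plain TPM ratios and by CPM, and the endothelial sum without Tek were chosen after seeing the data. Python 3.11.15 with scipy 1.17.1, pandas 2.3.3 and matplotlib 3.10.9 made the other values.

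Genes named are the members, genes beside them, the 8 called genes of lowest adjusted p per list, the other forkhead genes called, the 3 most correlated genes per member, the transduced factors and markers. Members and lists were chosen with earlier results of these data known, so their counts are descriptions. Macrophage markers summed to between 18.2 and 58.9 TPM. Depth ranged from 1208379 to 2225750 counts.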

Additional observations from a re-analysis of the deposited data

How the results depend on the processing

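Foxo4 was lower in OKS + FoxO6 in all 13 alternatives, but its call was lost without the day term (-0.89), in limma on log2(TPM + 0.1) (-0.80) and unfiltered log2(TPM + 1) (-0.79), and without day 3. With each day left out its shift lay between -0.98 and -0.68. The shifts of Foxo1 (0.17 to 0.52) and Foxo3 (-0.33 to -0.22) kept their sign and were not called in any alternative, and that of Foxo6 lay between 8.93 and 9.84. The genes called for the shift numbered 1544 (49.3% of them higher), 168 without the day term (73.8% higher) and between 663 and 1569 with a day left out. In the limma alternatives, which also use log2 TPM and other filters (14837 genes, or 22782 unfiltered), 824 genes were called with a pseudocount of 1 (60.8% higher), 722 with 0.1 (62.3%) and 445 unfiltered (66.1%). The FoxO inputs called numbered 8, 3 by DESeq2 and 13 with the length offset. The FoxO targets called numbered 16, and 13 by DESeq2, and the other forkhead genes called numbered 3, and 2 by DESeq2. The day effect of Foxo3 lost its call with the length offset (adjusted p = 0.0797). The slope of Foxo3 turned to 0.039 with the length offset, and ranged from -0.050 to 0.030 with a day left out. That of Foxo4 ranged from -0.066 to 0.13. None of these slopes was called. For the 3 members not transduced, the differences on single days past 2-fold numbered 2 in log2(TPM + 1), 5 by the plain TPM ratio and 4 in log2(CPM + 1), the last 2 rules added after seeing the data. The difference of Foxo3 at day 7 was -0.99 in log2(TPM + 1) and -0.58 in log2(CPM + 1). The causes were not tested. The main fit pairs the arms by day, and the replicate numbers, all 1, allow no further pairing. With between 1 and 4 control reads a day, the depth limits any statement on Foxo6 in OKS + DsRed.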
